A study of Mus musculus with 35 samples.

Results

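The genes described are 9 that encode the mTOR kinase complexes and the proteins next to them, out of 19938 genes measured on Affymetrix arrays of mouse lung. They are Mtor, Mlst8, Rptor, Akt1s1, Rictor, Deptor, Tsc1, Tsc2 and Rheb. The set was chosen by name, after Mlst8 had been selected on its difference between low stretch hypercapnia and low stretch normocapnia in these same arrays, so that difference is given as a description with no test. For the same reason Mlst8 was tested only in comparisons that hold no low stretch array. The low stretch arrays still enter the estimate of spread that these tests use. Each of the 9 genes had 1 probe set that carried a single gene symbol, and all 9 lay above the median level of the measured genes.

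The study set breathing with and without added CO2 (hypercapnia) against each other in mouse lungs ventilated gently or injuriously. All mice were adult males of the inbred strain C57BL/6J, weighed 20 to 25 g and ate a normal diet, and lungs were lavaged before they were removed and frozen. A group of 5 mice breathed room air spontaneously (non-ventilated). Low stretch mice were ventilated for 3 h with breaths of 10 mL/kg at a rate of 135 per min, and airway pressure was held at 2 cmH2O at the end of each breath. It was given in room air (low stretch normocapnia, 5 mice) or in room air with an inspired CO2 fraction of 0.12 (low stretch hypercapnia, 5 mice). High stretch mice received breaths of 35 to 40 mL/kg for the same 3 h, at a rate of 30 to 35 per min. Their airway pressure peaked at 27 cmH2O and returned to 0 cmH2O at the end of a breath. The inspired oxygen fraction was 0.75 and the CO2 fraction 0 (high stretch normocapnia, 10 mice) or 0.12 (high stretch hypercapnia, 10 mice). Breath size, airway pressure, oxygen and the rate of breathing therefore differ together between high and low stretch and cannot be told apart. High stretch mice also differ from non-ventilated mice in inspired oxygen, and no 3 h period is given for the non-ventilated mice. In comparisons with non-ventilated lung these cannot be told apart from ventilation. Each mouse had its own array.

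The mTOR kinase works in a pair of complexes that share the kinase and the small WD-repeat protein mLST8. Complex 1, built on raptor, promotes protein synthesis and cell growth and restrains autophagy, and complex 2, built on rictor, phosphorylates AKT and SGK1. PRAS40 (from Akt1s1) and DEPTOR hold the kinase back. Upstream, the TSC1 and TSC2 proteins form a complex that switches off the small GTPase Rheb, and GTP-bound Rheb activates complex 1 at the lysosome. Much of this control acts on proteins by phosphorylation and binding, which RNA arrays do not measure.

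The log2 signals of the arrays had medians between 6.96 and 7.05, and no array was a copy of another. The lung label fits the defining markers, since Sftpc (14.02), Ager (12.92) and Scgb1a1 (13.74), genes of type 2, type 1 and club cells, were among the brightest probe sets (mean log2 signal over 35 arrays). Cell type markers moved with ventilation: against non-ventilated lung, low stretch normocapnia had 8 of 8 neutrophil markers higher, and 7 of 7 B cell, 4 of 7 T cell and 5 of 8 endothelial markers lower. The mean log2 signal of the neutrophil list ran from 6.67 to 9.46 in non-ventilated arrays and from 10.10 to 10.85 in low stretch normocapnia arrays. That of the B cell list ran from 7.80 to 8.51 and from 6.47 to 7.12, and that of the endothelial list from 11.11 to 11.23 and from 10.71 to 10.83, in the same order. At high stretch the neutrophil (8 of 8 higher) and B cell (7 of 7 lower) counts were the same in both gases, and 6 of 8 endothelial markers were lower in normocapnia and 5 of 8 in hypercapnia. Monocyte and macrophage markers were higher there for 4 of 7 genes in normocapnia and 5 of 7 in hypercapnia. In either low stretch group, with 5 arrays and not 10, 0 of 7 passed. Still, 7 of 7 were above 0 in low stretch normocapnia (median log2 difference 0.25, against 0.33 in high stretch normocapnia). Directly between stretch levels 0 of 7 of these markers passed in either gas. Their mean level ran from 8.58 to 9.12 in non-ventilated lung, from 8.88 to 9.51 in high stretch normocapnia and from 8.83 to 9.45 in high stretch hypercapnia. Fibroblast and smooth muscle markers were lower for 5 of 8 genes in high stretch normocapnia and 3 of 8 in high stretch hypercapnia, with 1 of 8 higher in each. Platelet markers were higher for 1 of 5 and 4 of 5 genes in the same order. Type 2 cell markers had 4 of 8 lower and 1 of 8 higher in each high stretch group. Type 1 cell markers had 3 of 7 lower in each, and club and ciliated cell markers 3 of 6 lower in normocapnia and 4 of 6 in hypercapnia. In these comparisons 36.3% and 33.8% of all genes passed in either direction, and 54.2% and 50.2% of genes above the median level. The counts of the epithelial lists are near that background. The part of these shifts in the differences from non-ventilated lung described here was not tested, and in whole lung fewer cells of a type and less RNA per cell cannot be told apart. A gene passed, or was called, at a Benjamini-Hochberg adjusted p under 0.05 from limma, adjusted over all genes of that comparison. Differences are in log2 units with limma's standard error (SE).

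The upstream sequences of 4 genes are shown as pairs that differed in opposite directions: Mlst8 and Rictor, with CO2 at high stretch, and Tsc2 and Rheb, inhibitor and target, with stretch in normocapnia. Deptor and Tsc1 had larger stretch differences than Tsc2 and are not shown. Each is the 250 bases before the start given in RefSeq's promoters of GRCm38.p6, 5′ to 3′ on the gene's strand. For Mlst8, Rictor and Tsc2 that start lies inside the gene's longest annotated span. Mlst8 lies at chr17:24479079-24479328 on the minus strand, Rictor at chr15:6708131-6708380 on the plus strand, Tsc2 at chr17:24632628-24632877 on the minus strand and Rheb at chr5:24842362-24842611 on the minus strand. Capitals mark matches, on either strand, to 5 short motifs: the E-box CACGTG, the core TGACG of the cAMP response element, the GC box GGGCGG, the CCAAT box and the ETS core CCGGAA. In Rictor a GC box overlaps the CCAAT box, and in Rheb an ETS core overlaps the GC box.
Mlst8: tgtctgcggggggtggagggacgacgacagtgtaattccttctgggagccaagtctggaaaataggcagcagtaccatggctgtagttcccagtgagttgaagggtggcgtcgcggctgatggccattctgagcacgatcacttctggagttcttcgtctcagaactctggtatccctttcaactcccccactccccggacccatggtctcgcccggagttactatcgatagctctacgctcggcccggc
Rictor: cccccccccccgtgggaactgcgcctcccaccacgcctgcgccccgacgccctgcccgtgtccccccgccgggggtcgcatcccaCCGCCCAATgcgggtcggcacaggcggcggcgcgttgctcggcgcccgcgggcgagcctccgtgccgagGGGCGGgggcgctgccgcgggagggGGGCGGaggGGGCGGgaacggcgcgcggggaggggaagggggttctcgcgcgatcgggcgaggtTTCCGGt
Tsc2: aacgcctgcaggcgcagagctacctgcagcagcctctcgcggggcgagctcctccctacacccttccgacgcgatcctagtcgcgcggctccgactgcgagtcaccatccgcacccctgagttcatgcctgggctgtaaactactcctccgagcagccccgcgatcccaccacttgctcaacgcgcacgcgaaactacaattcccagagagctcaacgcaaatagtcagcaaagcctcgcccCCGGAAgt
Rheb: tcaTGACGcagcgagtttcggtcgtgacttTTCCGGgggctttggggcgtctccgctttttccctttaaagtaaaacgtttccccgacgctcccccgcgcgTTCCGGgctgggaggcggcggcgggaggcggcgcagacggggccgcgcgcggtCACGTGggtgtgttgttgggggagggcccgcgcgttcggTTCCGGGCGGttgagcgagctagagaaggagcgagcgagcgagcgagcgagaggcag

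The Mlst8 stretch held none of the 5 motifs, and 57.6% of its bases were G or C. The Rictor stretch, with 81.2% G or C, held 4 GC boxes, 1 CCAAT box and 1 ETS core, the last ending 2 bases from the start. The Tsc2 stretch held 1 ETS core, 3 bases from the start, and nothing else. The Rheb stretch held 3 ETS cores, 1 GC box, 1 E-box and 1 core of the cAMP response element. Among the 32851 stretches of the same length in the table, 12.0% held an ETS core, 32.7% a GC box, 33.9% a CCAAT box, 17.8% the cAMP response element core and 6.02% the E-box. Of the 8 members in the table (Deptor was not matched) 5 held an ETS core, 4 a GC box, 2 a CCAAT box, 3 the cAMP response element core and 1 the E-box. These are matches of letters and are no evidence of binding.

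Mlst8, the subunit shared by both complexes, was lower in hypercapnia than in normocapnia at high stretch, in arrays that had no part in choosing it. It ran from 8.13 to 8.43 in the 10 high stretch normocapnia arrays with a median of 8.33 (log2 signal). In the 10 high stretch hypercapnia arrays it ran from 7.74 to 8.17 with a median of 8.07. The groups overlapped only at their edge: 7 of the 10 hypercapnia arrays lay below every normocapnia array. The means were 7.99 ± 0.17 and 8.32 ± 0.10 (SD, n = 10 each), so that Mlst8 fell 1.25-fold with CO2 (log2 difference -0.32 ± 0.06, SE, limma adjusted p 0.000604, 95% interval -0.44 to -0.21). In this comparison 5.56% of all genes passed, and Mlst8 stood at rank 104 of 19938 by p.

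The description at low stretch, which chose the gene, reads as follows. The 5 low stretch normocapnia arrays had Mlst8 at 8.13, 8.14, 8.37, 8.34 and 8.33, and the 5 low stretch hypercapnia arrays at 7.76, 7.94, 7.80, 7.94 and 7.93. Every hypercapnia array was below every normocapnia array, and the difference was -0.39 ± 0.08 (SE). Limma called 0.115% of all genes in that comparison, a share from which nothing is read for Mlst8. The other 8 members lay between -0.08 (Rptor) and 0.07 (Deptor) there, and their groups overlapped.

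Non-ventilated lungs lay between these levels, at 8.14, 8.01, 8.26, 7.93 and 8.01. In order of the group means, Mlst8 stood at 7.87 ± 0.09 in low stretch hypercapnia, 7.99 ± 0.17 in high stretch hypercapnia, 8.07 ± 0.13 in non-ventilated lung, 8.26 ± 0.12 in low stretch normocapnia and 8.32 ± 0.10 in high stretch normocapnia (SD, n = 5, 10, 5, 5 and 10). Neighbours in this order differed by about the spread of 1 group or less, other than non-ventilated lung and low stretch normocapnia, which were 0.19 ± 0.08 (SE) apart. Against non-ventilated lung, high stretch normocapnia was higher by 0.25 ± 0.07 (SE, adjusted p 0.00536), with 8 of 10 arrays above every non-ventilated array. High stretch hypercapnia was at -0.07 ± 0.07 (SE, adjusted p 0.47) from non-ventilated lung and did not pass. High minus low stretch was 0.06 ± 0.07 in normocapnia and, with added CO2, 0.12 ± 0.07 (SE, described with no test).

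Bricd5 is the gene whose RefSeq span overlaps that of Mlst8, and it is named for its position. It was at -0.08 ± 0.07 (SE, adjusted p 0.659) with CO2 at high stretch. Marker lists were compared over the same 20 arrays. Of 8 type 2 cell markers Etv5 (-0.37, adjusted p 0.00148) and Slc34a2 (-0.23, adjusted p 0.000833) were lower with CO2, and the other 6, Sftpc among them (-0.02, adjusted p 0.853), did not pass. No marker of neutrophils (0 of 8), B cells (0 of 7), T cells (0 of 7), monocytes and macrophages (0 of 7), endothelium (0 of 8) or platelets (0 of 5) passed. Some of these lists still leaned to one side. Platelet markers were above 0 for 5 of 5 genes (median log2 difference 0.27), neutrophil markers for 1 of 8 (median -0.18) and B cell markers for 0 of 7 (median -0.17). The T cell, monocyte and macrophage, and endothelial lists held differences of both signs. The mean level of the type 2 list ran from 12.22 to 12.35 without CO2 and from 12.08 to 12.30 with it. The part of type 2 cells, or of any other cell type, in the Mlst8 difference was not tested.

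**Figure D1:**
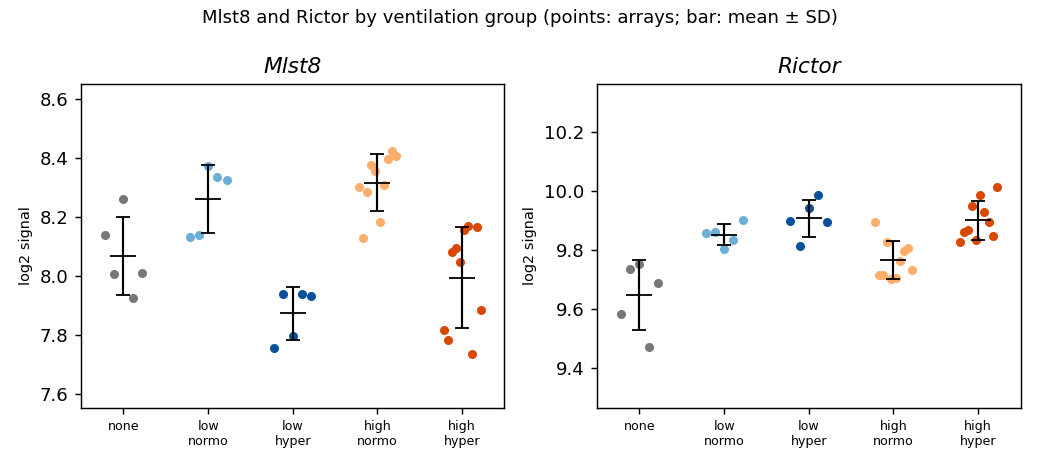
Log2 signal of Mlst8 and Rictor on each array (points) in the 5 groups, labelled by stretch and by normocapnia or hypercapnia, with the mean and SD as bars. Both hypercapnia groups of Mlst8 lie low (means 7.87 and 7.99) beside their normocapnia groups (8.26 and 8.32), and the Rictor groups of ventilated mice lie above the non-ventilated mean of 9.65.

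The kinase gene Mtor itself stayed within a narrow range. Its group means ran from 8.89 ± 0.08 (SD, n = 10) in high stretch normocapnia to 8.97 ± 0.06 (SD, n = 5) in low stretch hypercapnia, 0.08 apart. It passed in 0 of 8 tested comparisons. With CO2 at high stretch it was at 0.03 ± 0.04 (SE, adjusted p 0.79), with a 95% interval of -0.05 to 0.11. The 20 high stretch arrays held Mtor between 8.72 and 9.05, and the values with and without CO2 overlapped over most of that range.

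The partners of complex 1 also passed nowhere. Rptor, the scaffold that recruits substrates, had group means between 9.01 ± 0.09 (SD, n = 5) in low stretch hypercapnia and 9.09 ± 0.07 (SD, n = 5) in low stretch normocapnia. Its difference with CO2 at high stretch was -0.0029 ± 0.04 (SE, adjusted p 0.987), and its 95% interval ran from -0.09 to 0.08. Akt1s1, whose product PRAS40 is a substrate and inhibitor of complex 1, had its lowest mean in high stretch hypercapnia at 8.66 ± 0.09 (SD, n = 10) and its highest in non-ventilated lung at 8.79 ± 0.08 (SD, n = 5). Their difference of -0.12 ± 0.06 (SE) had an adjusted p of 0.0953. Akt1s1 varied most in low stretch normocapnia, where the 5 arrays read 8.70, 8.94, 8.79, 8.71 and 8.45. With CO2 at high stretch Akt1s1 was at -0.09 ± 0.05 (SE, adjusted p 0.325), and 6 of 10 hypercapnia arrays lay below every normocapnia array. The intervals for Mtor, Rptor and Akt1s1 leave room for differences of about the size of their array spread, so they do not show that these genes were equal between groups.

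**Figure D2:**
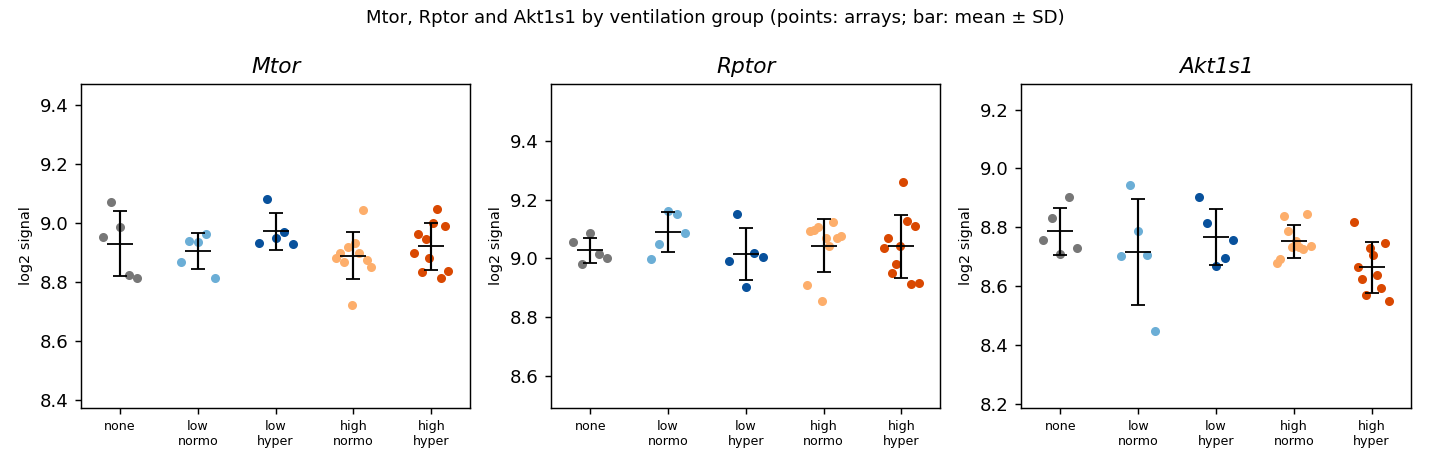
Log2 signal of Mtor, Rptor and Akt1s1 on each array (points) in the 5 groups, with the mean and SD as bars. The groups of each gene overlap, and the Mtor means lie between 8.89 and 8.97.

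Rictor, the scaffold of complex 2, was higher in all 4 ventilated groups than in non-ventilated lung. Non-ventilated arrays read 9.58, 9.74, 9.75, 9.47 and 9.69. Low stretch normocapnia arrays read 9.86, 9.86, 9.80, 9.84 and 9.90, and low stretch hypercapnia arrays 9.90, 9.82, 9.94, 9.99 and 9.90. Neither low stretch group overlapped the non-ventilated arrays. The rises were 0.21 ± 0.05 (SE, adjusted p 0.00631) in low stretch normocapnia, where 11.8% of all genes passed, and 0.26 ± 0.05 (SE, adjusted p 0.000436) in low stretch hypercapnia, where 15% did. With only the 10 arrays of each comparison in the fit these adjusted p became 0.105 and 0.0528.

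In the high stretch groups Rictor differed with CO2. High stretch normocapnia ran from 9.70 to 9.90 with a median of 9.75, and high stretch hypercapnia from 9.83 to 10.01 with a median of 9.88. The ranges met over a short stretch, and 5 of 10 hypercapnia arrays lay above every normocapnia array. Rictor rose with CO2 by 0.14 ± 0.04 (SE, adjusted p 0.0209, 1.10-fold), opposite in direction to Mlst8. With arrays centred on their medians the adjusted p was 0.0519. Mlst8 and Rictor were the 2 of 9 members that passed in this comparison, 1 lower and 1 higher. Of all genes 5.56% passed, and of genes above the median level 9.16%. The set was built around Mlst8, which was picked for CO2 at low stretch. The count of 2 is therefore not independent of that choice, and nothing is read from its share.

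Against non-ventilated lung Rictor was higher by 0.25 ± 0.04 (SE, adjusted p 2.52e-05) in high stretch hypercapnia, with all 10 arrays above every non-ventilated array. In high stretch normocapnia it was higher by 0.12 ± 0.04 (SE, adjusted p 0.034). That call did not hold when non-ventilated replicate 4 was left out (0.08, adjusted p 0.204), without non-ventilated replicate 1 (0.10, adjusted p 0.101) and without high stretch normocapnia replicate 1 (0.11, adjusted p 0.0647) or 4 (0.11, adjusted p 0.053). It was lost too with only the compared arrays in the fit (adjusted p 0.0975), after a second quantile normalization (0.09, adjusted p 0.0561) and with each array's spread in the model (0.10, adjusted p 0.0509). Between stretch levels Rictor was at -0.09 ± 0.04 (SE, adjusted p 0.207) in normocapnia and -0.01 ± 0.04 (SE, adjusted p 0.955) in hypercapnia.

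Deptor, which encodes an inhibitor that binds the kinase in both complexes, was higher at low stretch than in every other group. Non-ventilated arrays read 9.04, 9.25, 9.27, 9.15 and 9.09. Low stretch normocapnia arrays read 9.56, 9.44, 9.51, 9.47 and 9.35, and low stretch hypercapnia arrays 9.52, 9.71, 9.49, 9.49 and 9.50. All 10 low stretch arrays lay above all 5 non-ventilated arrays. The rises over non-ventilated lung were 0.31 ± 0.06 (SE, adjusted p 0.00018, 1.24-fold) in normocapnia and 0.38 ± 0.06 (SE, adjusted p 5.9e-06) in hypercapnia.

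At high stretch Deptor was back near the non-ventilated level. High stretch normocapnia ran from 9.05 to 9.24 (median 9.10) and high stretch hypercapnia from 9.08 to 9.29 (median 9.19), and neither range reached the lowest low stretch array at 9.35. High against low stretch, Deptor fell by 0.34 on the log2 scale in normocapnia (SE 0.05, adjusted p 3.36e-06) and by 0.35 in hypercapnia (SE 0.05, adjusted p 4.65e-06). From non-ventilated lung the high stretch groups were at -0.03 ± 0.05 (SE, adjusted p 0.653) and 0.03 ± 0.05 (SE, adjusted p 0.668). The 95% intervals of these differences, -0.13 to 0.06 and -0.07 to 0.13, hold neither of the low stretch rises. With CO2 Deptor was at 0.07 ± 0.04 (SE, adjusted p 0.425) at high stretch. Deptor and Rictor were the 2 of 8 members tested that passed for ventilation at low stretch in each gas, both higher, and Rictor did not pass with only the compared arrays in the fit. Among genes above the median level 18.7% passed in normocapnia and 23.8% in hypercapnia, so 2 of 8 is near the background.

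The TSC genes, which encode the brake on Rheb, were lower at high than at low stretch, Tsc1 in both gases and Tsc2 in normocapnia. Tsc1, the stabilising subunit, read 8.80, 8.96, 8.86, 8.86 and 8.70 in low stretch normocapnia and ran from 8.40 to 8.69 (median 8.58) in high stretch normocapnia, with no overlap. It fell by 0.25 on the log2 scale (SE 0.05, adjusted p 0.000673, 1.19-fold). In hypercapnia the low stretch arrays read 8.75, 8.85, 8.78, 8.73 and 8.79, and the high stretch arrays ran from 8.41 to 8.69 (median 8.55), again with no overlap. There Tsc1 fell by 0.24 (SE 0.05, adjusted p 0.00241).

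Non-ventilated lungs had Tsc1 at 8.64, 8.79, 8.79, 8.70 and 8.56, between the stretch levels and overlapping both. High stretch hypercapnia was lower than non-ventilated lung by a difference of -0.15 ± 0.05 (SE, adjusted p 0.0233), a call lost without non-ventilated replicate 2 (-0.13, adjusted p 0.0865) or 3 (-0.13, adjusted p 0.0789). It was also lost with array weights (adjusted p 0.0907) and with only the compared arrays in the fit (adjusted p 0.0717). High stretch normocapnia, at -0.11 ± 0.05 (SE, adjusted p 0.0977), did not pass, and neither did low stretch normocapnia at 0.14 ± 0.06 (SE, adjusted p 0.145). With CO2 at high stretch Tsc1 was at -0.04 ± 0.04 (SE, adjusted p 0.741).

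Tsc2, which carries the GTPase-activating domain, had its highest mean in non-ventilated lung, where the arrays read 9.75, 9.94, 9.95, 9.78 and 9.70. High stretch normocapnia ran from 9.37 to 9.61 (median 9.51), below all 5 non-ventilated arrays. The difference was -0.33 ± 0.06 (SE, adjusted p 2.22e-05, 1.25-fold lower). High stretch hypercapnia ran from 9.38 to 9.73 (median 9.60), with 9 of 10 arrays below every non-ventilated array and a difference of -0.25 ± 0.06 (SE, adjusted p 0.000895). The low stretch groups were intermediate, at -0.11 ± 0.07 (SE, adjusted p 0.376) and -0.16 ± 0.07 (SE, adjusted p 0.122) from non-ventilated lung without and with CO2.

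Between stretch levels Tsc2 fell by 0.22 on the log2 scale in normocapnia (SE 0.06, adjusted p 0.00559), where the low stretch arrays read 9.59, 9.75, 9.78, 9.78 and 9.69 and 9 of 10 high stretch arrays lay below all of them. In hypercapnia it was at -0.09 ± 0.06 (SE, adjusted p 0.355). There the low stretch arrays were spread, at 9.52, 9.87, 9.62, 9.63 and 9.70. That Tsc2 passed in 1 gas and not in the other does not show a difference between them: the interaction of CO2 and stretch was 0.13 ± 0.08 (SE, adjusted p 0.997). Pkd1, whose RefSeq span overlaps the end of Tsc2, was at -0.34 ± 0.09 (SE, adjusted p 0.00215) in high stretch normocapnia against non-ventilated lung and at -0.13 ± 0.09 (SE, adjusted p 0.388) between stretch levels in normocapnia. Nthl1, which starts beside Tsc2 on the other strand, was at -0.28 ± 0.09 (SE, adjusted p 0.00889) and -0.19 ± 0.09 (SE, adjusted p 0.131) in the same comparisons. In high stretch hypercapnia against non-ventilated lung Pkd1 was at -0.27 (adjusted p 0.0145) and Nthl1 at -0.37 (adjusted p 0.000837). Between stretch levels in hypercapnia, where Tsc2 did not pass, Pkd1 was at -0.11 (adjusted p 0.507) and Nthl1 at -0.27 (adjusted p 0.0412). Both neighbours were named for their position, and whether their RNA adds to the Tsc2 signal was not tested.

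Rheb, the activator that the TSC proteins switch off, moved the other way. Non-ventilated arrays read 9.75, 9.79, 10.02, 9.87 and 10.11, low stretch normocapnia 10.11, 9.81, 9.95, 9.83 and 9.99, and low stretch hypercapnia 9.93, 9.72, 10.06, 10.08 and 10.07. These 15 arrays overlapped throughout. High stretch normocapnia ran from 9.95 to 10.48 (median 10.32), and 9 of its 10 arrays lay above every low stretch normocapnia array, replicate 2 at 9.95 being the exception. Rheb rose by 0.37 ± 0.07 (SE, adjusted p 0.000383, 1.29-fold) over low stretch normocapnia.

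High stretch hypercapnia ran from 9.99 to 10.35 (median 10.21), with 9 of 10 arrays above every low stretch hypercapnia array. The rise of 0.24 ± 0.07 (SE, adjusted p 0.0281) was lost without low stretch hypercapnia replicate 2 (0.18, adjusted p 0.158) or 1 (0.23, adjusted p 0.0586) and without high stretch hypercapnia replicate 10 (0.23, adjusted p 0.0512). Over non-ventilated lung Rheb rose by 0.39 ± 0.07 (SE, adjusted p 4.4e-05) in high stretch normocapnia and 0.31 ± 0.07 (SE, adjusted p 0.00111) in high stretch hypercapnia. With CO2 at high stretch it was at -0.09 ± 0.06 (SE, adjusted p 0.499).

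**Figure D3:**
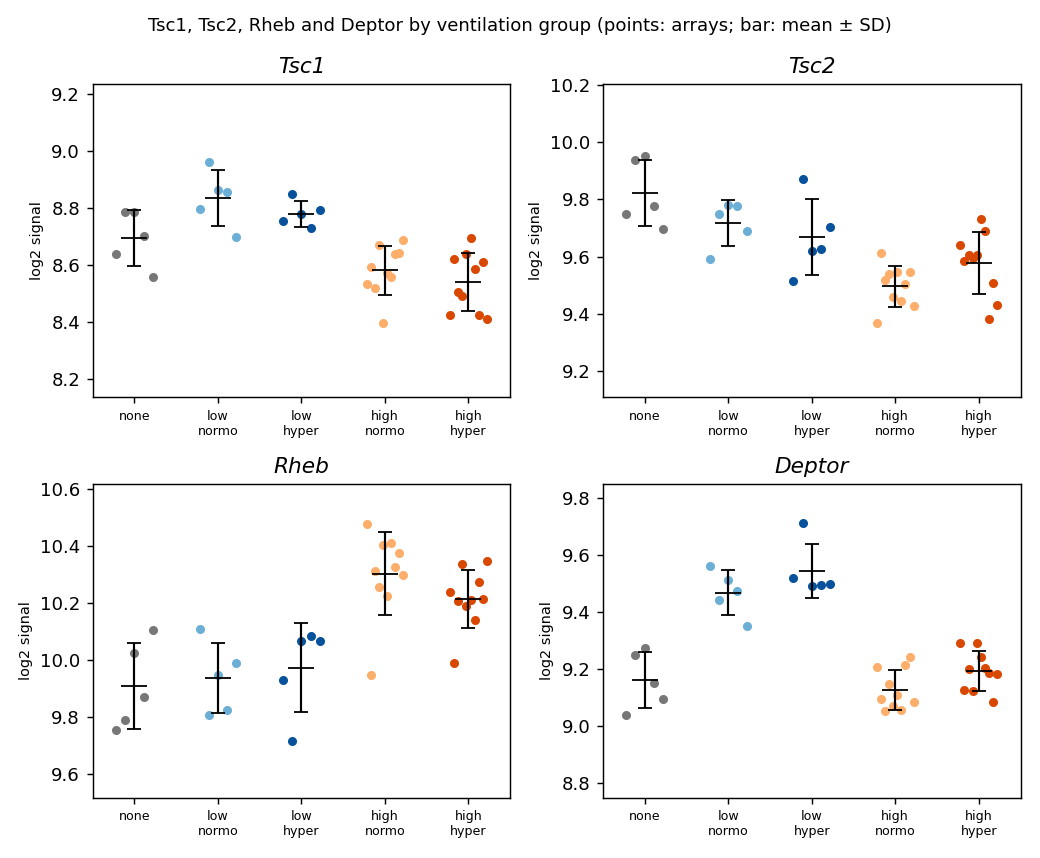
Log2 signal of Tsc1, Tsc2, Rheb and Deptor on each array (points) in the 5 groups, with the mean and SD as bars. The high stretch means of Tsc1 (8.58 and 8.54) lie below its low stretch means (8.84 and 8.78), those of Rheb (10.30 and 10.21) lie above (9.94 and 9.97), and the Deptor groups at low stretch (9.47 and 9.54) stand above the other 3.

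Counted together, high against low stretch in normocapnia changed 4 of the 8 members tested: Rheb was higher, and Deptor, Tsc1 and Tsc2 were lower, where 18.3% of all genes passed. In hypercapnia 3 of 8 passed, Rheb higher and Deptor and Tsc1 lower, against 10.1% of all genes. Against non-ventilated lung 4 of 9 members passed in high stretch normocapnia (Mlst8, Rictor and Rheb higher, Tsc2 lower) and 4 of 9 in high stretch hypercapnia (Rictor and Rheb higher, Tsc1 and Tsc2 lower). In these comparisons 36.3% and 33.8% of all genes passed, and among genes above the median level, where all 9 members lie, 54.2% and 50.2%. The members' share of 4 in 9 lies between these backgrounds. The comparisons with non-ventilated lung share its 5 arrays, and those between stretch levels share arrays with them. For the interaction of CO2 and stretch limma called 0 of 8 members and 0% of all genes, while 893 of 19938 genes had an unadjusted p under 0.05.

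The same counts have a different base rate among expressed genes. Of the 9969 genes above the median level, 28.7% passed for high stretch in normocapnia, 15.7% for high stretch in hypercapnia, 18.7% for low stretch ventilation and 9.16% for CO2 at high stretch. The B cell markers, which had fallen with ventilation, were higher at high than at low stretch for 5 of 7 genes in normocapnia and 4 of 7 in hypercapnia. Their mean level ran from 6.47 to 7.12 at low stretch and from 6.91 to 7.46 at high stretch in normocapnia. Of the neutrophil markers 0 of 8 passed between stretch levels in either gas, and 2 of 8 endothelial markers were lower in each, with 1 of 8 higher in hypercapnia. The part of these cells in the stretch differences of the members was not tested.

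**Figure D4:**
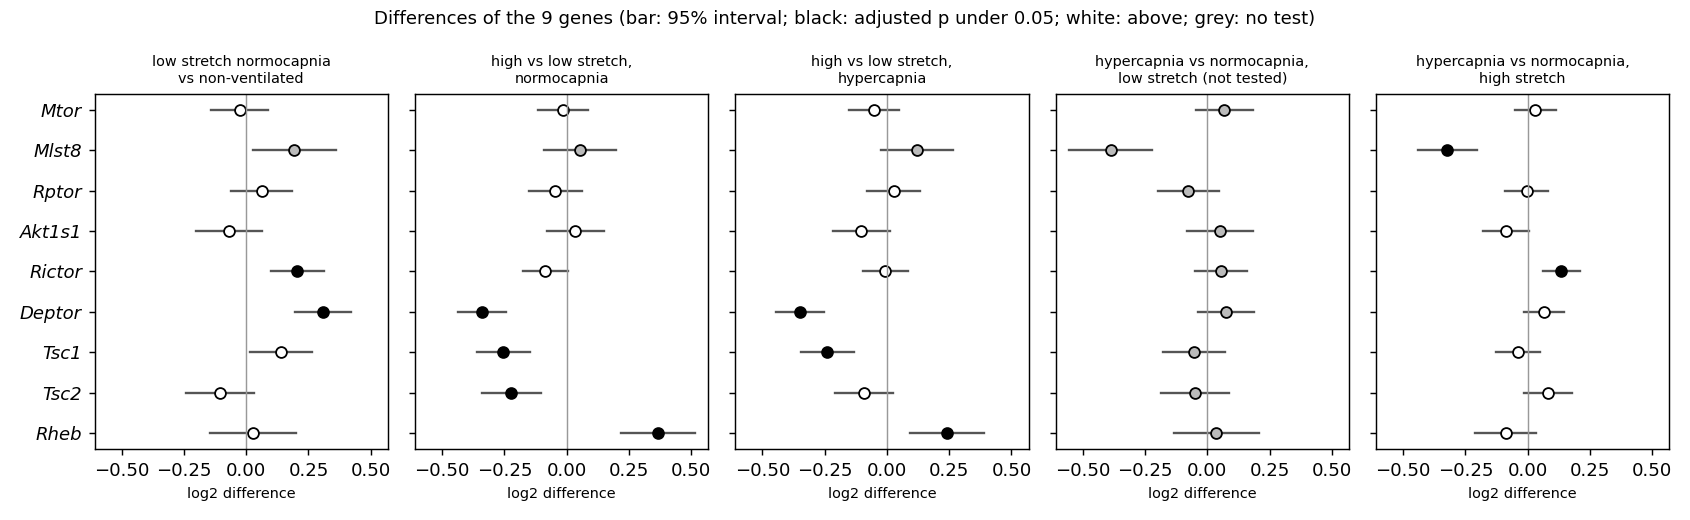
Log2 differences of the 9 genes in 5 comparisons, with 95% intervals as bars. Black points passed at an adjusted p under 0.05, white points did not, and grey points were not tested (Mlst8 wherever low stretch arrays enter, and every gene for CO2 at low stretch). Mlst8 stands at -0.39 and -0.32 for CO2 at low and at high stretch, and Rheb at 0.37 and 0.24 for stretch.

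The genes most like a member over the 35 arrays were taken by Pearson's r among 19937 others, for Mlst8 and the members called most often (Rictor in 5 and Deptor in 4 of 8 comparisons, Deptor being taken before Rheb, also 4, by its smaller p). Being the highest of so many, these r are descriptions without a p, and all arrays share 1 normalization and the group differences. Mlst8 was most like Fbxo22, a ubiquitin ligase subunit gene (r = 0.88, rho = 0.87), Emc3, of the membrane protein insertion complex (r = 0.86, rho = 0.86), and Zc3h13, of the RNA methylation machinery (r = 0.85, rho = 0.87). After the group means were removed these r were 0.72, 0.70 and 0.65, and without the 2 arrays farthest from the Mlst8 median 0.85, 0.83 and 0.82. Rictor was most like Rc3h2 (r = 0.86, rho = 0.80), Rsrc2 (r = 0.86, rho = 0.80) and Scaf4 (r = 0.85, rho = 0.84), and these r were 0.73, 0.72 and 0.57 within groups and 0.76, 0.75 and 0.80 without 2 arrays. Deptor was most like Ccdc28b (r = 0.84, rho = 0.77), Atp7b (r = 0.84, rho = 0.74) and Fbxo31 (r = 0.83, rho = 0.71), with 0.45, 0.42 and 0.28 within groups and 0.82, 0.83 and 0.81 without 2 arrays.

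Other genes of the pathway were read from 6 lists with 81 measured genes, of which 74 lay above the median level. For ventilation at low stretch in normocapnia 16 of 81 passed, 13 higher and 3 lower (19.8%, against 18.7% of genes above the median level). Stress and energy inputs had 4 of 11 higher and 0 lower. Ddit4, an inducible inhibitor that acts through TSC2, was at 0.72 ± 0.17 (SE, adjusted p 0.00278), and the AKT inhibitor gene Trib3 at 0.52 ± 0.12 (SE, adjusted p 0.00301). Among amino acid sensors and GATOR genes 2 of 16 rose, the stress-induced inhibitors Sesn2 (0.73 ± 0.14, SE, adjusted p 0.00034) and Sesn1 (0.62 ± 0.19, SE, adjusted p 0.0294). Of 13 Rag and Ragulator genes Flcn (0.31, adjusted p 0.00482) and Fnip1 (0.17, adjusted p 0.0354), partners in a GTPase-activating complex, were higher. Downstream effectors had 4 of 17 higher and 0 lower, led by the phosphatidate phosphatase gene Lpin1 (0.81 ± 0.15, SE, adjusted p 0.000228), the translation repressor gene Eif4ebp1 (0.51 ± 0.09, SE, adjusted p 0.000104) and the kinase gene Sgk1 (0.40 ± 0.09, SE, adjusted p 0.0013). Of 11 other complex and assembly genes 2 were lower, the complex 2 partner gene Prr5l (-0.43 ± 0.12, SE, adjusted p 0.0151) and the assembly chaperone gene Telo2 (-0.20, adjusted p 0.024). Of 13 insulin, PI3K and AKT genes the adaptor gene Irs2 was higher (0.39, adjusted p 0.00346) and Pik3cb lower (-0.29, adjusted p 0.0247). The median over the 81 genes was 0.03, and that over all genes -0.01.

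For high against low stretch in normocapnia 34 of 81 passed, 11 higher and 23 lower (42.0%, against 28.7% of genes above the median level). The median over the 81 genes was -0.02, as was that over all genes. Ddit4 fell by 0.57 (SE 0.14, adjusted p 0.00418), Sesn1 by 0.70 (SE 0.17, adjusted p 0.00251), Flcn by 0.34 (SE 0.07, adjusted p 0.000286) and Lpin1 by 0.75 (SE 0.13, adjusted p 5.95e-05) on the log2 scale. This comparison shares the 5 low stretch normocapnia arrays with the one before it. Sesn2 was at 0.07 (adjusted p 0.809) between stretch levels and at 0.80 ± 0.12 (SE, adjusted p 2.03e-06) in high stretch normocapnia against non-ventilated lung.

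Other lower genes were the arginine sensor gene Castor1 (-0.52, adjusted p 0.00117), the lysosomal arginine sensor gene Slc38a9 (-0.33, adjusted p 7.91e-05), the Rheb relative Rhebl1 (-0.37, adjusted p 0.00548) and Tti1 (-0.23, adjusted p 0.00139). The PI3K inhibitor gene Pik3ip1 (-0.50, adjusted p 0.00248), the regulatory subunit gene Pik3r1 (-0.36, adjusted p 0.00046) and the translation inhibitor gene Pdcd4 (-0.42, adjusted p 0.000207) were lower too. The higher genes included Sgk1 (0.28, adjusted p 0.00761), the AMPK subunit gene Prkab2 (0.32, adjusted p 8.58e-05) and Irs2 (0.27, adjusted p 0.0159). Prr5l, at -0.02 (adjusted p 0.952), did not pass. In hypercapnia 16 of 81 passed, 5 higher and 11 lower (19.8%, against 15.7% of genes above the median level), with Pik3ip1 (-0.46, adjusted p 0.01), Lpin1 (-0.42, adjusted p 0.0307), Rhebl1 (-0.37, adjusted p 0.00953) and Flcn (-0.28, adjusted p 0.00399) lower and Prkab2 (0.37, adjusted p 1.8e-05) higher.

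With CO2 at high stretch 11 of 81 passed, 7 higher and 4 lower (13.6%, against 9.16% of genes above the median level). Lower were the assembly helicase gene Ruvbl1 (-0.21 ± 0.05, SE, adjusted p 0.00723), the Rag and Ragulator genes Rragc (-0.14, adjusted p 0.0294) and Lamtor3 (-0.14, adjusted p 0.0372), and Itfg2 (-0.18, adjusted p 0.023). Higher were Castor1 (0.41 ± 0.09, SE, adjusted p 0.00587), the growth factor receptor gene Igf1r (0.26 ± 0.05, SE, adjusted p 0.00089), Lpin1 (0.43 ± 0.11, SE, adjusted p 0.01) and Pdcd4 (0.26, adjusted p 0.0106). The AMPK subunit genes Prkaa2 (0.29, adjusted p 0.0118), Prkab2 (0.16, adjusted p 0.0255) and Prkab1 (0.16, adjusted p 0.0047) were higher as well. Ddit4 (0.21, adjusted p 0.379), Sesn2 (-0.03, adjusted p 0.933) and Prr5l (-0.12, adjusted p 0.518) did not pass.

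**Figure D5:**
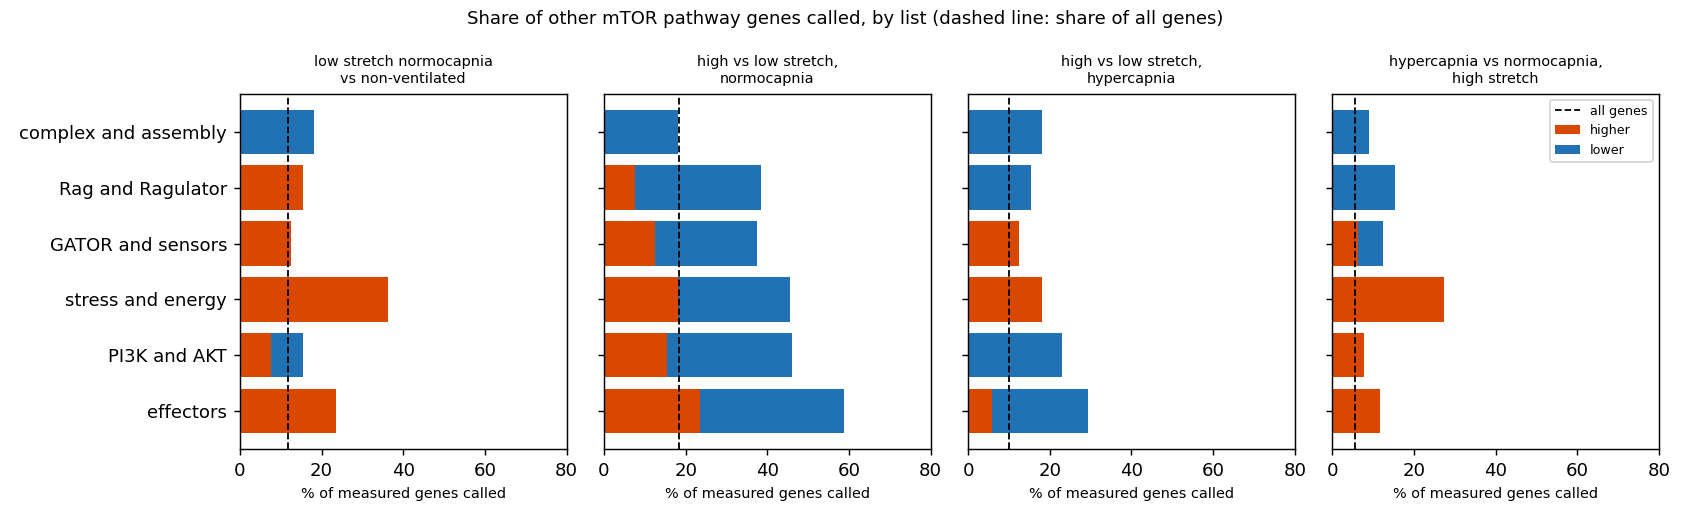
Share of the measured genes of 6 other mTOR pathway lists that passed in 4 comparisons, higher in orange and lower in blue, with the share of all 19938 genes as a dashed line (11.8, 18.3, 10.1 and 5.56%). Among genes above the median level, where 74 of the 81 listed genes lie, the shares were higher (18.7, 28.7, 15.7 and 9.16%) and are not drawn. Stress and energy inputs have the largest share of the 6 lists for low stretch normocapnia against non-ventilated lung (4 of 11) and for CO2 at high stretch (3 of 11), all of them higher.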

How the data were processed

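RNA of 35 mouse lungs was measured on 1 Affymetrix array each, labelled biological replicates. The deposited values are log2 signals that the authors had normalized between arrays. Per the submitters' processing notes the software included RMA, Partek and Affymetrix Expression Console, with no version or role stated, and the genome build is not given in the sources used here. Of 35557 probe sets 21789 carried 1 gene symbol in the platform's gene table, 1621 several and 12147 were not listed; per gene the one with the highest mean over all arrays was kept (19938 genes, no filter on level).

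All 35 arrays entered 1 fit of group means (lmFit and eBayes of limma 3.58.1, two-sided, in R 4.3.3), with p adjusted over all genes within a comparison. The fit was also run on simulated data of independent genes, with shifts in the high stretch hypercapnia group alone. Those data are simpler than these arrays, and no call rests on them. Whether the mice came from separate litters or days is not stated, so p-values measure the spread between these animals. The labels and the table give no batch or scan date. The members and lists were chosen with earlier results of these data known. Named are the 9 members and, per list, at most the 3 largest differences among genes that passed, with Ddit4, Sesn2 and Prr5l by role. Alternatives were the compared arrays alone, a replicate block, weighted arrays, eBayes trend and robust options, genes above the median level, the mean of probe sets, median centring, a second quantile normalization, the array spread as a covariate, and leaving out each array. Motifs were searched in RefSeq upstream sequences (GRCm38.p6). The number of arrays limits the precision.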

Additional observations from a re-analysis of the deposited data

Results flagged for a closer look

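In 3 of the 45 sets of arrays formed by 9 genes and 5 groups, 1 array stood far from the others of its group, by a gap larger than Dixon's 95% critical value, which chance exceeds in about 1 of 20 sets. In low stretch hypercapnia replicate 2 had Mtor at 9.08, where the other 4 arrays ran from 8.93 to 8.97. The same array had Deptor at 9.71, where the others ran from 9.49 to 9.52. In high stretch normocapnia replicate 2 had Rheb at 9.95, where the other 9 ran from 10.22 to 10.48.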

How the results depend on the processing

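Of 21 calls of single members, 15 held in all 9 alternatives and in every fit that left out 1 array of the groups compared, and no called value changed sign. The other 6 are calls of Rictor (4), Tsc1 (1) and Rheb (1), whose values stand beside them in the results, other than those with the replicate block, given here. With only the compared arrays in the fit, 1 of 8 members passed in place of 2 for low stretch normocapnia and 1 in place of 2 for low stretch hypercapnia against non-ventilated lung, Deptor in each. For CO2 at high stretch 1 of 9 passed in place of 2, Mlst8, with the replicate block (Rictor adjusted p 0.0534) and also with arrays centred on their medians. The block also lost Rictor in high stretch normocapnia against non-ventilated lung (adjusted p 0.16) and no other call. Leaving out 1 array gave 2 to 2 members for low stretch normocapnia, 2 to 3 for low stretch hypercapnia, 3 to 5 for high stretch normocapnia and 3 to 4 for high stretch hypercapnia, each against non-ventilated lung. It gave 4 to 4 for stretch in normocapnia, 2 to 3 for stretch in hypercapnia, 2 to 2 for CO2 at high stretch and 0 to 0 for the interaction. Calls gained were Tsc2 in low stretch hypercapnia without its replicate 2 (-0.21, adjusted p 0.0305), Akt1s1 in high stretch hypercapnia after a second quantile normalization (-0.16, adjusted p 0.0331) and Tsc1 in high stretch normocapnia under that normalization (-0.15, adjusted p 0.0255) or without non-ventilated replicate 5 (-0.15, adjusted p 0.0379), each against non-ventilated lung. The arrays showed no sign that the replicate numbers pair the mice. Deviations from the group means correlated on average by 0.01 for the same number in different groups (55 pairs, -0.34 to 0.38). For different numbers the average was -0.0014 (420 pairs, -0.50 to 0.52), and 2 of 35 arrays correlated best with their own number. Such averages over all genes cannot show whether mice shared a day or a litter. The cause of the lost calls was not tested. All 9 members lay above the median level of the measured genes, and their signal over background was not measured here.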
